A study of Mus musculus with 15 samples.

Results

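The genes described here are the 3 TGF-beta ligands (Tgfb1, Tgfb2 and Tgfb3), the 3 receptors (Tgfbr1, Tgfbr2 and Tgfbr3) and the 4 latent TGF-beta binding proteins (Ltbp1, Ltbp2, Ltbp3 and Ltbp4). They were taken by name, as every probe set annotated to exactly 1 gene where that gene is one of these. This gave 24 probe sets for the 10 genes, of 45037 probe sets and 18193 genes on the array. The ligands had 7 probe sets, the receptors 8 and the binding proteins 9. Probe sets annotated to several genes named none of them.

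RNA from the whole mouse aorta was measured on 15 expression arrays, 1 array for each mouse. Every mouse was a male C57BL/6 animal of 9 weeks that lacked Apoe (ApoE-/-), the apolipoprotein whose loss raises blood lipids and makes mice prone to atherosclerosis. The diabetic mice had received streptozotocin, which destroys insulin-producing beta cells, at 65 mg/kg in 5 daily injections at 6 weeks of age. The non-diabetic mice had received citrate buffer. The Apoe/RAGE null mice (ApoE-/- RAGE-/-) carried, besides, a deletion of Ager, the gene of RAGE, a receptor that binds advanced glycation end products. The groups held 4 diabetic Apoe null mice (replicates 1 to 4), 4 non-diabetic Apoe null mice (5 to 8), 4 diabetic Apoe/RAGE null mice (9 to 12) and 3 non-diabetic Apoe/RAGE null mice (13 to 15). No group had an intact Apoe gene, and the double null mice came from another colony than the Apoe null mice. RAGE deletion and colony therefore cannot be told apart.

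TGF-beta is secreted in a latent form: the cut propeptide stays wrapped around the ligand, and a latent binding protein ties the complex to the extracellular matrix. Integrins, proteases or thrombospondin release the ligand, which then binds the type II receptor and, with the type I receptor, phosphorylates Smad2 and Smad3. The type III receptor presents ligand, Tgfb2 above all, to the type II receptor. In the aorta this pathway is known for its part in the contractile state of smooth muscle and in the making of elastic and collagen fibres.

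The levels are deposited log2 values from robust multi-array averaging (RMA), so a difference of 1 is a doubling. Array medians lay between 4.35 and 4.42. Pairs of arrays correlated at 0.972 to 0.997 over all probe sets, and replicate 10 was least like the others, with a mean correlation of 0.975. Neither probe set of the targeted gene, Ager, was lower in the arrays labelled Apoe/RAGE null. The first (1420428_at) read 3.08 to 3.66 on all 15 arrays. The second (1441958_s_at) read 4.17 to 4.69 on the Apoe null arrays and was higher, at 4.89 to 5.36, on replicates 11 to 15, while replicates 9 and 10, also labelled Apoe/RAGE null, read 4.63 and 4.48. Whether either lies in the deleted part is not given in the sources used here. A Decr2 probe set, picked after its values were seen, read 6.84 to 7.56 on replicates 11 to 15 and 5.32 to 6.01 on the Apoe null arrays, and replicates 9 and 10 again lay apart from replicates 11 to 15, at 5.19 and 5.10. The main results on the diabetic Apoe/RAGE null group are therefore given with and without replicates 9 and 10, and group names are those of the labels. The mean of 6 vascular smooth muscle markers, the main cell type of the aortic wall, was 11.1 to 12.0 on every array.

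The promoters of the genes that the results turn on are shown first, as the 250 bases before a start site in RefSeq (GRCm38.p6), read 5′ to 3′ on the gene's strand. Tgfb2 and Ltbp1 are shown for their lower values in diabetic Apoe/RAGE null aorta, Tgfbr1 for its higher values in diabetic Apoe null aorta, and Tgfb1 as the ligand that differed least between the diabetic groups. Capitals mark matches of the TATA box (TATAAA), an E-box (CACGTG), the cyclic AMP response element (TGACGTCA) and the GC box (GGGCGG, or CCGCCC from the other strand).
Tgfb2, chr1:186705990-186706239, minus strand: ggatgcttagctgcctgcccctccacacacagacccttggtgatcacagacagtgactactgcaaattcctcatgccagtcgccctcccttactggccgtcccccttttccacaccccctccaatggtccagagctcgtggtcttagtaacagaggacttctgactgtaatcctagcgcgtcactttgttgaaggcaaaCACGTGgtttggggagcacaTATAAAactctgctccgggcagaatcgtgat
Ltbp1, chr17:75005279-75005528, plus strand: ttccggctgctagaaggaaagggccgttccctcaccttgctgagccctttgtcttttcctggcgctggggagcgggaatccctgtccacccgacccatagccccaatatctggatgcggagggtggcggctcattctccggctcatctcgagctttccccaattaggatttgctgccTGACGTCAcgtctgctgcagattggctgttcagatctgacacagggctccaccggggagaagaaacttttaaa
Tgfbr1, chr4:47352972-47353221, plus strand: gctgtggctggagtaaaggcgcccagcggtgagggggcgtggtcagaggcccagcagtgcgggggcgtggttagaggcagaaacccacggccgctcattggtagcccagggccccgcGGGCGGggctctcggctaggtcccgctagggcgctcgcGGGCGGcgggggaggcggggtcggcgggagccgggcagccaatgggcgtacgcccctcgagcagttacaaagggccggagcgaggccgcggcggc
Tgfb1, chr7:25686752-25687001, plus strand: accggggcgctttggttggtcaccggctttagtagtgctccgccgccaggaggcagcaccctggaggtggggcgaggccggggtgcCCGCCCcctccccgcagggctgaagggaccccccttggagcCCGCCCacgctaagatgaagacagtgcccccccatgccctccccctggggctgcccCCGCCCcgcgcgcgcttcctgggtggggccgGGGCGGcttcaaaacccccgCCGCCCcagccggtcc
The genes span chr1:186622787-186709697 (Tgfb2), chr17:75005480-75392512 (Ltbp1), chr4:47353222-47414926 (Tgfbr1) and chr7:25687002-25705077 (Tgfb1) in that build. The Tgfb2 window held TATAAA at base -31 and CACGTG at base -51, counted back from the start site. These letters occurred on either strand in 12.4% and 6.02% of 32851 windows of the same length. The Ltbp1 window held the cyclic AMP response element at base -73, as 1.55% of all windows did. Tgfbr1 had 2 GC boxes and Tgfb1 had 5, and 32.7% of all windows had at least 1. The Smad element CAGACA stood at base -204 of the Tgfb2 window, and 17.1% of windows held it. It also stood at base -203 of another Tgfbr1 window. Another Ltbp1 window held it on the other strand at bases -149 and -98. Those windows, before other start sites of the same genes, are not printed here. The Tgfb1 window was 75.2% G and C, against 53.6% for Tgfb2 and a median of 52.4% over all windows. The CArG box, which binds serum response factor, and the AP-1 site TGANTCA had no match in any of the 12 windows found for 8 of the genes. CArG boxes were in 1.47% of all windows and AP-1 sites in 6.75%. A match here is a string of letters, not a measured site.

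The ligand Tgfb2, the isoform needed for heart and aortic arch development in mice, stood apart between the diabetic groups with and without RAGE. On its brightest probe set (1423250_a_at) the diabetic Apoe null arrays read 8.78, 8.16, 9.07 and 8.79. The non-diabetic Apoe null arrays read 7.99, 8.24, 8.26 and 8.06. The level was 7.92, 7.18, 7.55 and 7.68 in diabetic Apoe/RAGE null aortas, and 8.04, 7.80 and 7.81 in non-diabetic ones. The diabetic groups did not overlap, while each group overlapped its neighbour in the order of the means: diabetic Apoe null, non-diabetic Apoe null, non-diabetic Apoe/RAGE null, diabetic Apoe/RAGE null. In bulk tissue, fewer cells that make a transcript and less transcript per cell cannot be told apart.

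Between the diabetic groups, the Tgfb2 level fell by 1.12 ± 0.18 with RAGE deletion (log2 difference ± SE, 95% interval -1.49 to -0.74, n = 4 and 4), a 2.17-fold difference (limma, adjusted p = 0.0377). It was the only one of the 24 probe sets past an adjusted p of 0.05, in a comparison that called 0.244% of all probe sets, 0.218% of them as lower. The group means were 8.70 ± 0.38 (SD) and 7.58 ± 0.31. Without replicates 9 and 10 the difference was -1.08 ± 0.19, with an adjusted p of 0.0678 (limma). The call was kept in 6 of the 15 fits that each left out 1 array: it was lost without replicate 1, 3, 4, 6, 10, 11, 12, 14 or 15. The difference itself lay between -1.30 and -0.98 in these fits, and limma's adjusted p between 0.00855 and 0.150. A fit on the compared groups alone gave the same difference with an adjusted p of 0.111.

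The remaining Tgfb2 probe sets had differences of the same sign without passing the adjusted test. The difference was -1.25 ± 0.25 for 1450922_a_at (limma, adjusted p = 0.0558), -1.09 ± 0.24 for 1450923_at (0.0659) and -0.78 ± 0.18 for 1438303_at (0.0761). All but 1438303_at were designed from a single sequence record, so 3 of the 4 are not independent measurements. On 1438303_at the diabetic Apoe null arrays read 6.09, 5.35, 6.08 and 5.47, and the diabetic Apoe/RAGE null arrays read 5.10, 4.96, 4.82 and 5.00. These groups did not overlap. On 1450923_at they did, where replicate 9 lay above replicate 2, which read 6.90. Replicate 2 was the lowest diabetic Apoe null array on all 4 probe sets, and replicate 3 the highest on 3 of them.

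**Figure D1:**
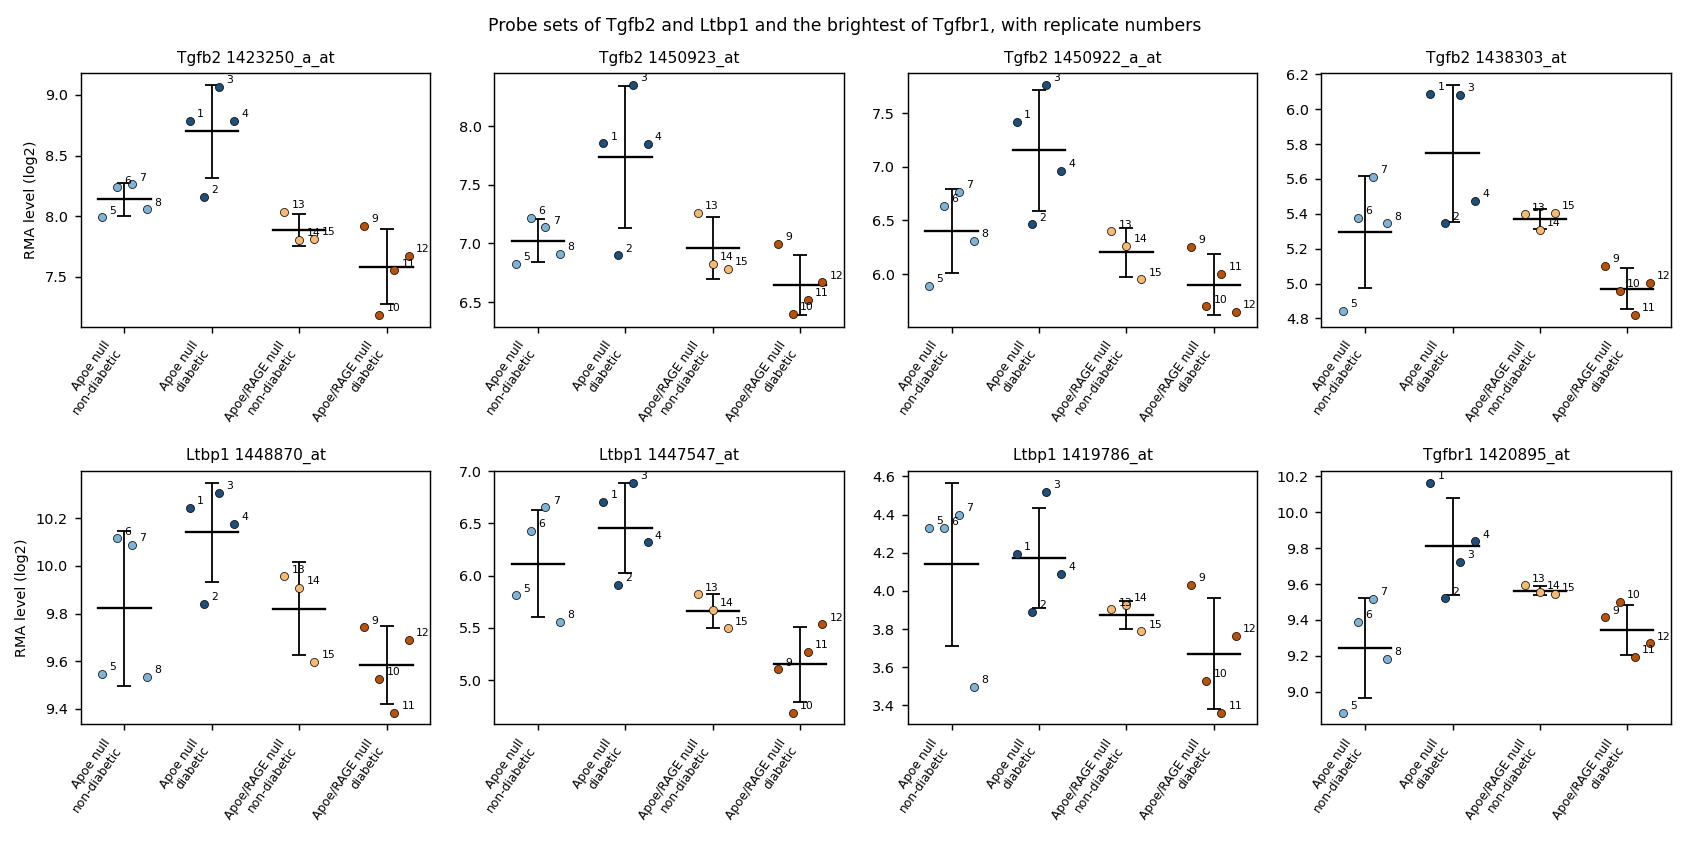
RMA level (log2, vertical axis) on each of the 15 arrays, by group, for the 4 probe sets of Tgfb2, the 3 of Ltbp1 and the brightest of Tgfbr1; points are arrays with their replicate numbers, bars are means with SD, and vertical scales differ. Diabetic Apoe null arrays lie above diabetic Apoe/RAGE null arrays for Tgfb2 1423250_a_at (8.16 to 9.07 against 7.18 to 7.92), and replicate 2 is the lowest of its group on each Tgfb2 panel.

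The other ligands differed less between the diabetic groups. Tgfb3, known for its part in palate closure, read 8.68, 8.37, 9.12 and 8.33 in diabetic Apoe null aortas and 8.05, 7.74, 8.17 and 8.14 in diabetic Apoe/RAGE null aortas. The groups did not overlap, but the difference of -0.60 ± 0.18 did not pass (limma, unadjusted p = 0.00426, adjusted p = 0.138). Non-diabetic Apoe null arrays held Tgfb3 at 8.19 to 8.81, and non-diabetic Apoe/RAGE null arrays at 8.06 to 8.37. Tgfb1, the isoform most widely made in adult tissue and by immune cells, averaged 6.87 ± 0.20 (SD, n = 4) with diabetes in Apoe null aortas and 6.78 ± 0.28 (n = 4) in their Apoe/RAGE null counterparts. Its difference of -0.09 ± 0.15 had a 95% interval of -0.41 to 0.22, and all 4 groups overlapped. The second Tgfb1 probe set was dim, at 3.74 to 4.24.

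Among the receptors, the signalling type I receptor Tgfbr1 (1420895_at) was highest in diabetic Apoe null aorta, at 10.16, 9.52, 9.72 and 9.84. Non-diabetic Apoe null arrays read 8.88, 9.39, 9.52 and 9.18. Diabetic Apoe/RAGE null arrays read 9.42, 9.50, 9.20 and 9.27, and non-diabetic ones 9.59, 9.55 and 9.54. The diabetic Apoe null arrays all lay above the diabetic Apoe/RAGE null arrays and, by a margin smaller than the rounding of replicates 2 and 7, above the non-diabetic Apoe null arrays. The difference with diabetes in Apoe null mice was 0.57 ± 0.14 (limma, unadjusted p = 0.00129, adjusted p = 0.295). The difference with RAGE deletion in diabetic mice was -0.47 ± 0.14 (unadjusted p = 0.0054, adjusted p = 0.151). Both comparisons share the diabetic Apoe null arrays. The other Tgfbr1 probe sets were dim, below 3.80 on every array.

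The type II receptor Tgfbr2 and the type III receptor Tgfbr3 varied little. Tgfbr2 (1426397_at) lay between 9.26 and 9.90 over all 15 arrays, and all groups overlapped. Tgfbr3 (1433795_at) lay between 9.55 and 10.21, and its order differed from that of Tgfbr1: it was highest in non-diabetic Apoe/RAGE null aorta, at 10.20, 10.21 and 10.20. These 3 arrays lay above every other array. Against non-diabetic Apoe null aorta the Tgfbr3 difference was 0.32 ± 0.11 (limma, unadjusted p = 0.0105, adjusted p = 1). In diabetic mice the difference with RAGE deletion was 0.14 ± 0.10 for Tgfbr3 and -0.12 ± 0.11 for Tgfbr2. On the other Tgfbr3 probe set, 1425620_at, the non-diabetic groups overlapped. Its difference with RAGE deletion was 0.27 ± 0.21 in non-diabetic and -0.09 ± 0.20 in diabetic mice.

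**Figure D2:**
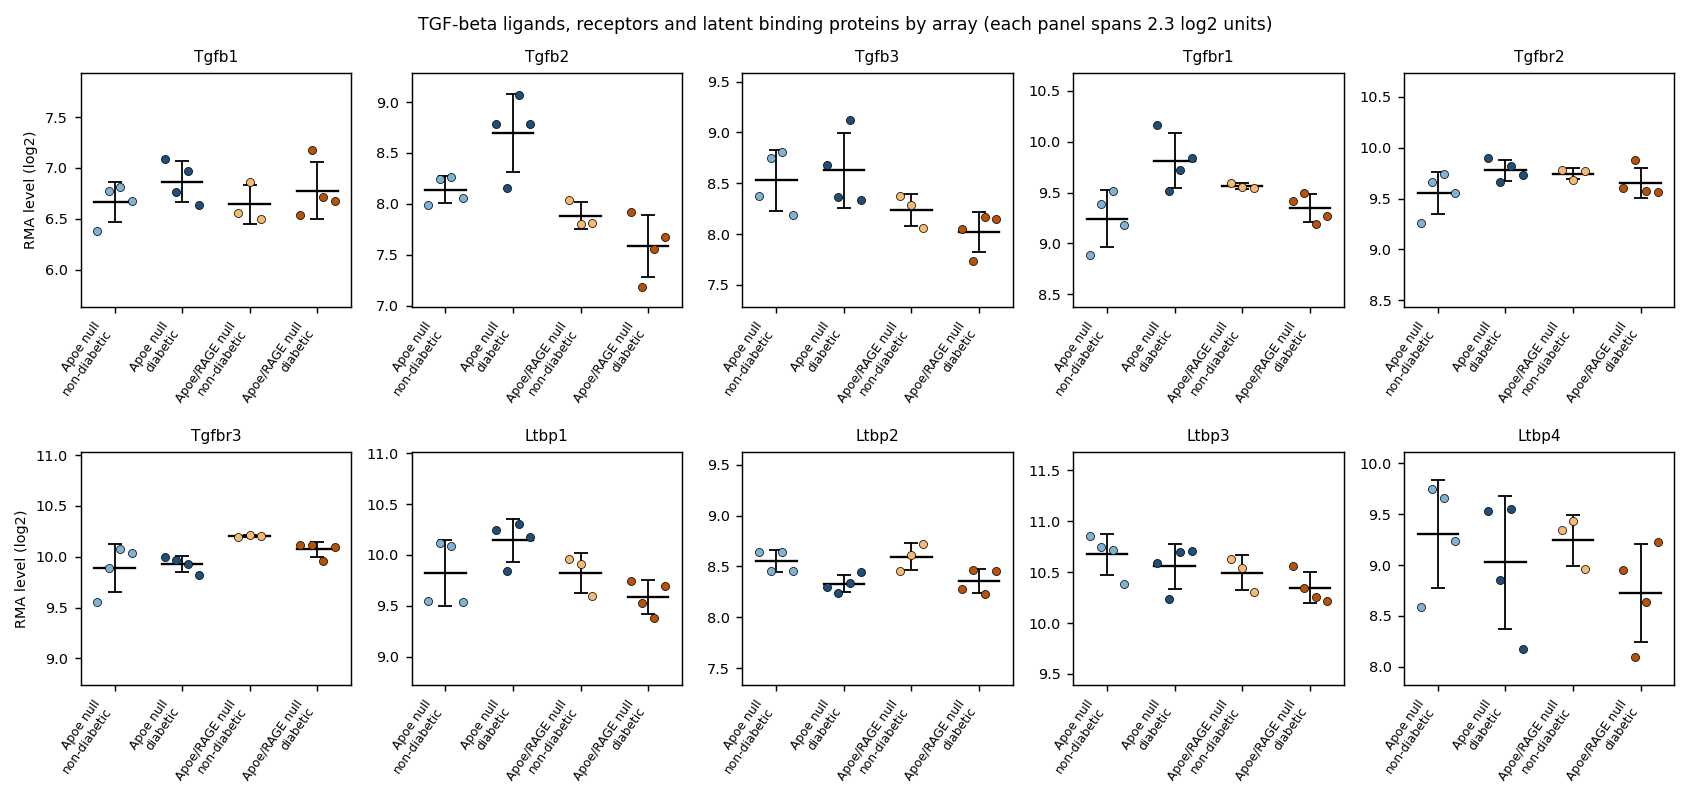
RMA level (log2, vertical axis) of the 10 genes on each array, by group, on the brightest probe set of each gene; points are arrays, bars are means with SD, and every panel spans the same height. Tgfb2 shows the widest spacing of group means (8.70 to 7.58), while Tgfbr2 and Ltbp2 stay within narrow ranges.

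Of the latent binding proteins, Ltbp1, which carries the latent complex to fibrillin fibres, had the lowest values in diabetic Apoe/RAGE null aorta on its 3 probe sets by group mean. On 1447547_at the level was 6.71, 5.91, 6.89 and 6.32 in diabetic Apoe null aortas and 5.10, 4.69, 5.27 and 5.54 in diabetic Apoe/RAGE null aortas. It was 5.81, 6.43, 6.66 and 5.56 in non-diabetic Apoe null aortas and 5.82, 5.68 and 5.49 in non-diabetic Apoe/RAGE null aortas. The diabetic groups did not overlap on this probe set. The difference of -1.31 ± 0.25 missed the threshold (limma, adjusted p = 0.0508). On the brightest probe set, 1448870_at, the diabetic Apoe null arrays read 10.24, 9.84, 10.31 and 10.18 and the diabetic Apoe/RAGE null arrays 9.74, 9.53, 9.38 and 9.69, again without overlap. That difference was -0.56 ± 0.15 (limma, adjusted p = 0.117), so the probe sets differ in size of difference but not in sign. The dimmest Ltbp1 probe set had a level near or below the array median, with a difference of -0.50 ± 0.20. Ltbp1 lies on chromosome 17, 40.4 Mb from Ager, and is the only one of the 10 genes on that chromosome.

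The remaining binding proteins gave smaller or less even differences between diabetic groups. Ltbp3, needed in mice for normal bone and tooth growth, differed by -0.35 ± 0.15 on 1418049_at (limma, unadjusted p = 0.0309) and by -0.21 ± 0.13 on its brightest probe set. Ltbp4, which helps assemble elastic fibres, differed by -0.30 ± 0.32 and had the largest SD within groups of the 10 genes' brightest probe sets: the diabetic Apoe null arrays alone read 9.54, 8.86, 9.55 and 8.18. Ltbp2, which binds fibrillin but no latent TGF-beta, differed by 0.03 ± 0.09. Its mean was lower with diabetes in either genotype, with levels of 8.30, 8.24, 8.33 and 8.45 in diabetic against 8.64, 8.46, 8.65 and 8.46 in non-diabetic Apoe null aortas. That difference was -0.22 ± 0.09 (limma, unadjusted p = 0.0249, adjusted p = 0.413), and in Apoe/RAGE null mice it was -0.24 ± 0.09.

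Across the genes, 20 of the 24 probe sets had a negative difference with RAGE deletion in diabetes. At an unadjusted p under 0.05, 11 of 24 were lower and 0 higher, against 9.21% and 5.60% of all probe sets. Groups did not overlap, with the diabetic Apoe/RAGE null arrays lower, for 7 of 24, against 4.70% of all probe sets. By the criterion in the submitters' notes, a B statistic (log odds of a difference) above 0, 4 of 24 counted, namely 3 Tgfb2 probe sets and 1 of Ltbp1, against 0.713% of all. Without replicates 9 and 10, 10 of 24 were lower at an unadjusted p under 0.05, against 8.54% of all probe sets, and groups did not overlap for 11 of 24, against 12.7%. Of the 24 probe sets, 17 were brighter than the array's median probe set. The shares of all probe sets, here and in the other comparisons, include dim ones and so are not a like background. Probe sets of 1 gene are not independent: the 11 lower at an unadjusted p under 0.05 on all arrays belong to Tgfb2, Tgfb3, Tgfbr1, Ltbp1 and Ltbp3. The median difference over the brightest probe set of each gene was -0.26, against -0.00 over all genes.

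With diabetes in Apoe null mice no probe set passed the adjusted test, among the 24 or on the whole array (0%). At an unadjusted p under 0.05, 7 of 24 were higher, against 5.78% of all probe sets, and 1 was lower, against 4.86%. The 7 were the 4 Tgfb2 probe sets, 2 of Tgfbr1 (its brightest and a dim one) and a dim one of Ltbp3. Tgfb2 differed by 0.56 ± 0.18 on its brightest probe set and by 0.45 to 0.75 on the others. Its groups overlapped through replicate 2 and, on 1438303_at, through replicate 4 as well. On their brightest probe sets Ltbp1 differed by 0.32 ± 0.15, Tgfbr2 by 0.22 ± 0.11, Tgfb1 by 0.20 ± 0.15, Tgfb3 by 0.10 ± 0.18 and Tgfbr3 by 0.04 ± 0.10. Ltbp3 and Ltbp4 differed by -0.12 ± 0.13 and -0.28 ± 0.32. The sign was not shared by the other probe sets of Tgfbr2, at -0.24 ± 0.17 (1425444_a_at) and -0.07 ± 0.08 (1422019_at, dim). Nor was it shared by the dim Tgfb1 probe set, at -0.19 ± 0.11. Groups did not overlap for Tgfbr1, higher with diabetes (3.49% of all probe sets did so), and for Ltbp2, lower (2.58%). Of the 10 genes, 6 had their highest group mean in diabetic Apoe null aorta.

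RAGE deletion without diabetes gave no adjusted call on the array (0%), and 1 of the 24 probe sets, that of Tgfbr3, was higher at an unadjusted p under 0.05, against 1.23% of all, and 0 were lower, against 1.34%. Groups did not overlap for 2 that were higher, Tgfbr1 and Tgfbr3 (2.11% of all), and 1 probe set of Tgfbr2, not its brightest, that was lower (2.66%). Tgfb2 differed by -0.25 ± 0.19 and Ltbp1 by -0.00 ± 0.17. Tgfbr1 differed by 0.32 ± 0.15, in the opposite direction from that in diabetic mice. Diabetes in Apoe/RAGE null mice also gave no adjusted call (0%). There 2 of 24 were lower at an unadjusted p under 0.05, against 3.65% of all, namely Ltbp2 and 1 probe set of Ltbp3 (-0.37 ± 0.16), and 0 were higher, against 3.60%. Groups did not overlap for 3 probe sets that were lower with diabetes, 1 each of Tgfb2, Tgfbr1 and Tgfbr3, against 4.08% of all. That count was 5 of 24 without replicate 10, against 5.48%, and 9 of 24 without replicates 9 and 10, against 11%, while 1 of 24 was then lower at an unadjusted p under 0.05, against 1.80%. Tgfb2 differed by -0.30 ± 0.19, Tgfbr1 by -0.22 ± 0.15 and Ltbp1 by -0.24 ± 0.17.

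Whether diabetes acted differently with and without RAGE was tested as an interaction. No probe set passed after adjustment (0%). At an unadjusted p under 0.05, 7 of 24 were called, all negative, against 4.92% of all probe sets negative and 2.29% positive: the 4 of Tgfb2, 1 of Tgfbr1 and 2 of Ltbp1. The interaction was -0.86 ± 0.26 for Tgfb2 (limma, unadjusted p = 0.00471, adjusted p = 0.675), -0.79 ± 0.21 for Tgfbr1 (0.00207 and 0.675) and -0.56 ± 0.23 for Ltbp1 (0.0269 and 0.675). All 10 genes had a negative interaction on their brightest probe set, against 50.2% of all genes, with a median of -0.28 against -0.00 over all genes. For Tgfb1, Tgfb3, Ltbp2, Ltbp3 and Ltbp4 the sign changed under at least 1 setting. Their highest values were 0.16, 0.041, 0.042, 0.17 and 0.43. Without replicates 9 and 10, 8 of 24 were negative at an unadjusted p under 0.05, against 4.60% of all. Each of the 4 comparisons shares arrays with 2 of the others, and the interaction uses all 15, so their counts are not separate evidence.

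**Figure D3:**
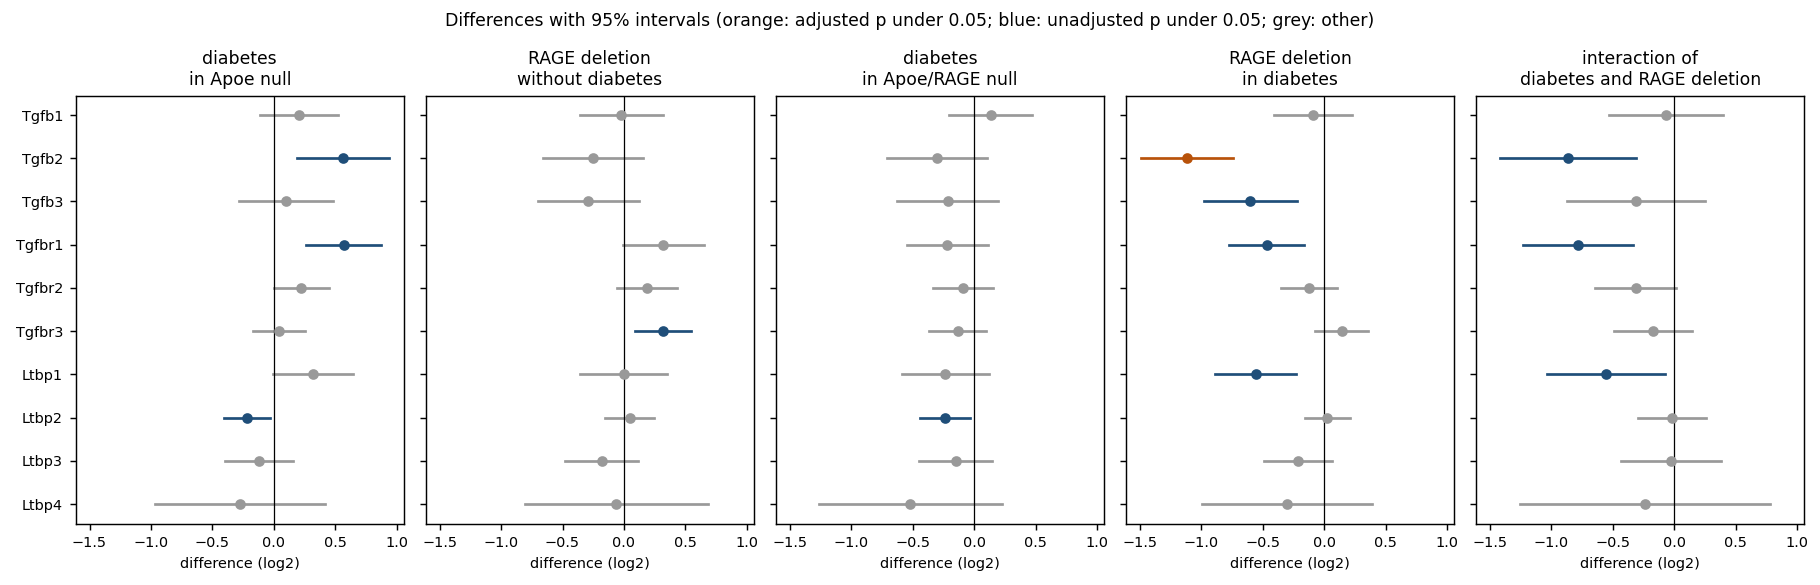
Log2 difference (horizontal axis) with its 95% interval for the brightest probe set of each gene in the 4 comparisons and the interaction. The interval of Tgfb2 with RAGE deletion in diabetes (-1.49 to -0.74) is the one whose adjusted p is under 0.05.

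Across the 15 arrays the levels of several of these genes moved together, as a description of samples that share groups and cell make-up. Tgfbr1 and Tgfbr2 correlated at 0.86, Tgfb2 and Ltbp1 at 0.85, and Tgfb2 and Tgfb3 at 0.82; after group means were taken out these were 0.86, 0.69 and 0.69. Tgfb1 and Tgfb2 correlated at 0.11. Among the 11124 genes searched, those brighter than the array's median probe set, those most like Tgfb2 were Cdr2 (0.95), Scube3 (0.94) and Klhl30 (0.94), those most like Tgfbr1 were Sema3d (0.92), Akirin2 (0.92) and Crebbp (0.91), and those most like Ltbp1 were Vcl, the focal adhesion protein vinculin (0.97), Slc2a10, a glucose transporter whose loss in humans gives tortuous arteries (0.97) and Lhfp (0.97).

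Other genes of the pathway were read on their brightest probe set. Of 27 measured target genes, 26 had a negative difference with RAGE deletion in diabetes and 20 were lower at an unadjusted p under 0.05 (limma). The median was -0.43, against -0.00 over all genes. By the same rule 9.21% of all probe sets were lower, a share that includes dim probe sets and so is not a like background for brightest ones. Lox alone passed the adjusted test: this enzyme, which crosslinks collagen and elastin, had a level that fell by 0.96 ± 0.15 (limma, adjusted p = 0.0356). It was 9.69 to 10.04 in diabetic Apoe null and 8.73 to 9.08 in diabetic Apoe/RAGE null aortas, with no overlap. Eln, which encodes elastin, differed by -0.89 ± 0.20 (adjusted p = 0.0671), and Skil, a Smad co-repressor, by -0.46 ± 0.11 (adjusted p = 0.0793). Without replicates 9 and 10 the target genes had 25 negative differences, a median of -0.45 and 0 adjusted calls (limma). With the mean of the smooth muscle markers as a covariate, added after the data were seen, 22 of the 27 were negative, the median was -0.16 and 0 passed (limma); with the skeletal muscle mean 26 were negative, with a median of -0.30 and 0 adjusted calls.

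Upstream of the receptors, 14 of 18 genes of latency and activation had a negative difference in that comparison, 0 passed, and the median was -0.30. Thbs1, the thrombospondin that releases TGF-beta from its latent complex, differed by -1.17 ± 0.24 (limma, adjusted p = 0.0594), from 5.77 to 6.33 in diabetic Apoe null to 4.70 to 5.22 in diabetic Apoe/RAGE null aortas. With diabetes in Apoe null mice Thbs1 differed by 1.32 ± 0.24 (adjusted p = 0.222). The integrin subunit Itgb1 differed by -0.53 ± 0.16 with RAGE deletion in diabetes. Of 10 coreceptors and receptor partners 9 were negative (median -0.21), of 12 matrix binders and antagonists 10 (median -0.26) and of 7 other ligands of the family 6 (median -0.42). Htra1, a secreted serine protease that restrains signalling by this family, differed by -0.63 ± 0.14, and Fmod, the collagen-binding fibromodulin, by -0.60 ± 0.16. Vasn, which encodes a membrane protein that binds TGF-beta, differed by -0.58 ± 0.16, and Smurf2, a ubiquitin ligase of the receptor complex, by -0.46 ± 0.12. Bmp4, a ligand of the bone morphogenetic branch, differed by 0.68 ± 0.19 with diabetes in Apoe null mice and by -0.52 ± 0.19 with RAGE deletion in diabetes. In the list of Smads and their regulators 14 of 16 were negative with RAGE deletion in diabetes (median -0.19), and 14 of 16 positive with diabetes in Apoe null mice (median 0.24). There Smad3 differed by 0.42 ± 0.11 and Skil by 0.40 ± 0.11, and no gene of any of these lists passed the adjusted test. The lists overlap: Skil, Smad7, Pmepa1, Thbs1 and Inhba each stand in 2 of them, and Ltbp2 is also a target gene. With the smooth muscle covariate the medians with RAGE deletion in diabetes were -0.10 for latency and activation, -0.14 for coreceptors and partners, -0.05 for matrix binders and antagonists (8 of 12 negative), -0.19 for other ligands (5 of 7 negative) and -0.12 for Smads and their regulators. With the skeletal muscle covariate they were -0.19, -0.20, -0.16, -0.33 and -0.13.

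**Figure D4:**
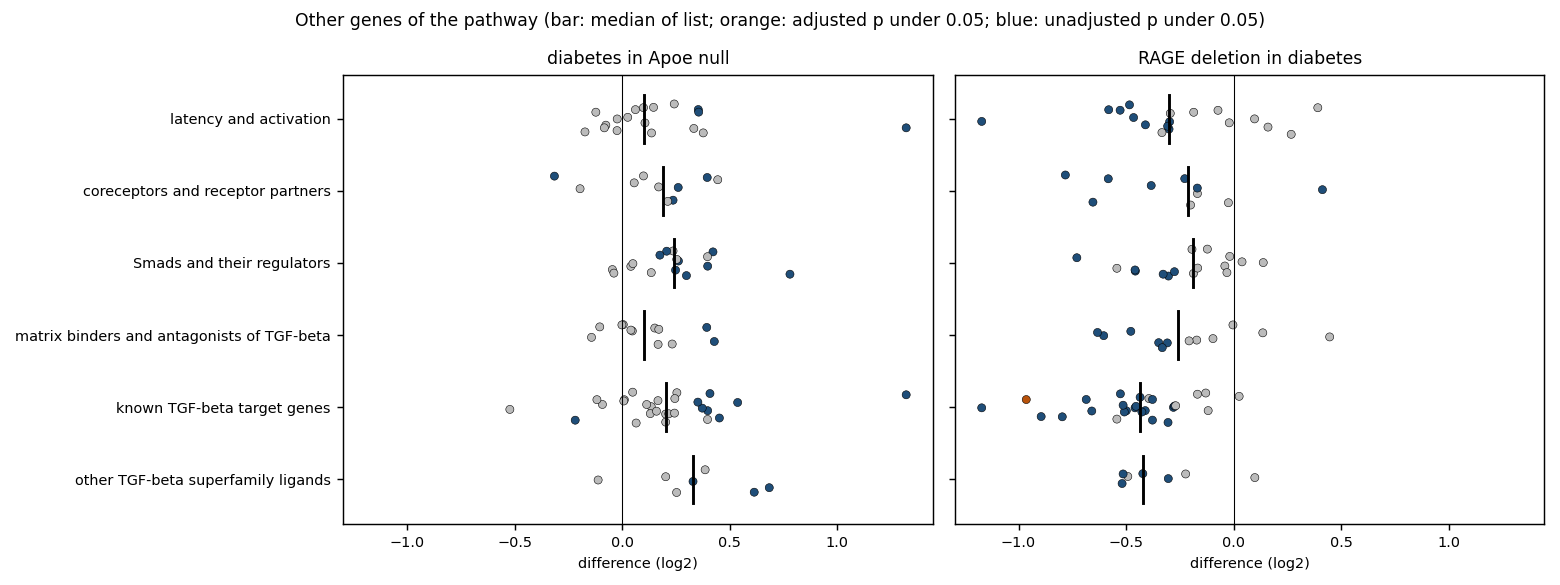
Log2 difference (horizontal axis) of each measured gene of 6 pathway lists (rows; points are genes, black bars are list medians) with diabetes in Apoe null mice (left) and with RAGE deletion in diabetes (right). Medians run from 0.10 to 0.33 on the left and from -0.43 to -0.19 on the right, and Lox is the orange point.

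Markers of other cell types differed between the same groups. The mean of 6 vascular smooth muscle markers was 11.50 to 12.00 in diabetic Apoe null and 11.11 to 11.70 in diabetic Apoe/RAGE null aortas, and all 6 differences were negative (median -0.38, 0 adjusted calls, 3 with an unadjusted p under 0.05 by limma). Within diabetic Apoe null aortas replicate 2 was lowest in this mean as it was for Tgfb2. Within diabetic Apoe/RAGE null aortas the lowest arrays differed: replicate 11 in this mean (11.11) and replicate 10 on the brightest Tgfb2 probe set (7.18). Replicate 9 had a higher smooth muscle mean than replicate 2 (11.70 against 11.50) and a lower Tgfb2 level (7.92 against 8.16). These arrays were picked after their values were seen, and replicate 9 is among those that lay apart at Decr2. Such readings of single arrays are a description, and a cause was not tested by them. With the smooth muscle mean as a covariate the Tgfb2 difference was -0.73 ± 0.15 (limma, adjusted p = 0.404). Acta2, Tagln and Cnn1 are on both the smooth muscle and the target list. The mean of 6 skeletal muscle markers was 5.19 to 8.46 in diabetic Apoe null and 7.78 to 9.53 in diabetic Apoe/RAGE null aortas. Without diabetes, this mean spanned 3.90 to 5.13 for the Apoe/RAGE null arrays and 4.14 to 7.99 for the Apoe null arrays. The value of 7.99 came from replicate 8 and lay within the diabetic Apoe/RAGE null range. With the skeletal muscle mean as a covariate the Tgfb2 difference was -1.01 ± 0.20 (limma, adjusted p = 0.354). The medians of adipocyte markers had the opposite sign from Tgfb2 in both comparisons with diabetic Apoe null aorta, which share those arrays. The mean of 4 brown adipocyte markers was 8.29 to 9.88 there, 9.45 to 10.22 in non-diabetic Apoe null and 8.84 to 10.24 in diabetic Apoe/RAGE null aortas. At an unadjusted p under 0.05 (limma, 0 adjusted calls), 3 of the 4 were lower with diabetes in Apoe null mice (median -1.0) and 3 higher with RAGE deletion in diabetes (median 0.71). For 4 white adipocyte markers these counts were 2 and 2, with medians of -0.77 and 0.47. The remaining brown adipocyte marker had a difference of the other sign in each comparison. All 5 neutrophil markers had a positive difference with RAGE deletion in diabetes (median 0.96, 2 with an unadjusted p under 0.05, 0 adjusted calls), with means of 4.02 to 4.38 and 4.17 to 5.64 in the diabetic groups. By the unadjusted rule 4.86% of all probe sets were lower with diabetes in Apoe null mice. With RAGE deletion in diabetes 9.21% were lower and 5.60% higher. These shares include dim probe sets.

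The fibroblast mean was 10.23 to 10.57 and 10.01 to 10.51 in the diabetic groups, the macrophage mean 7.40 to 7.92 and 7.37 to 8.52, and the B and T cell mean 3.72 to 5.06 and 3.56 to 7.50. The part of adipocyte, neutrophil, fibroblast, macrophage and lymphocyte markers in the result was not tested.

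**Figure D5:**
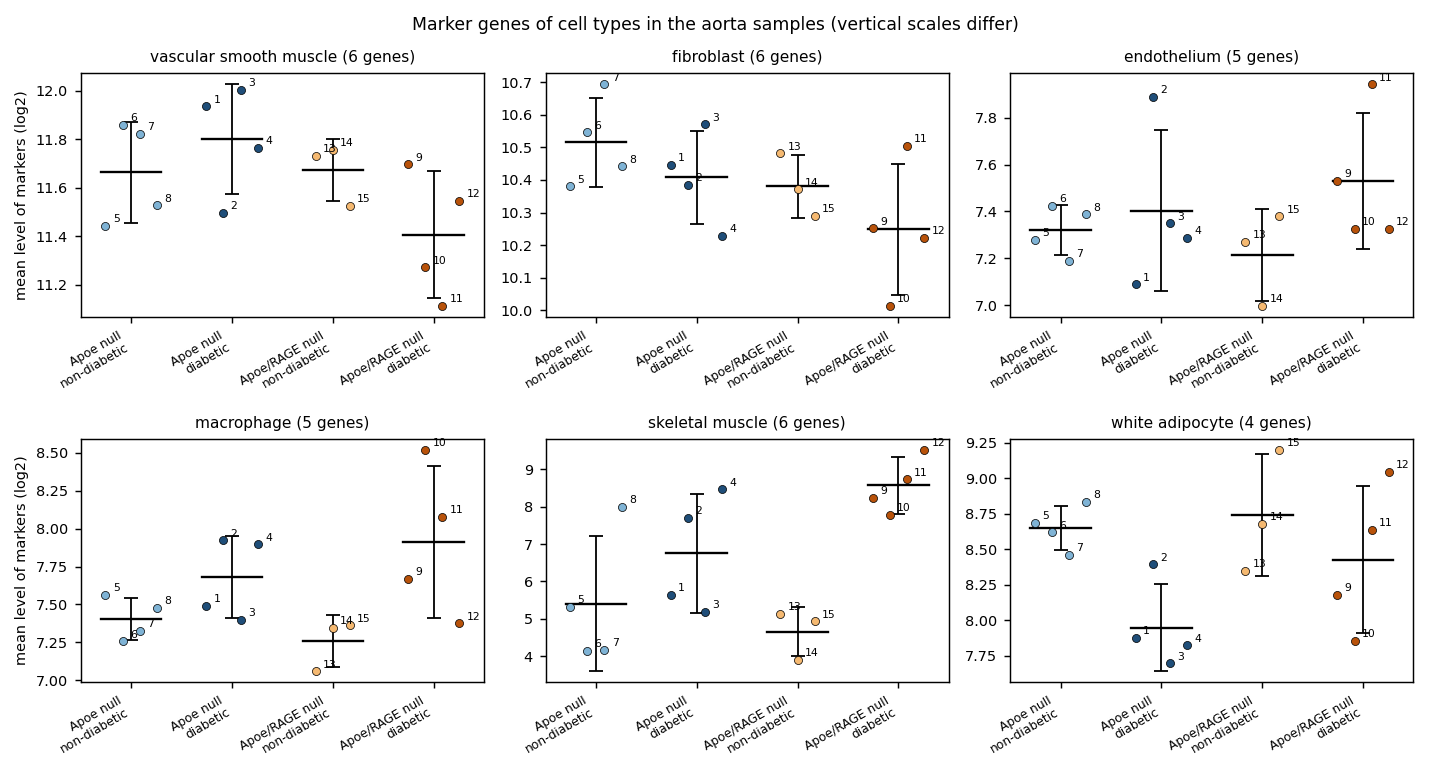
Mean RMA level (log2, vertical axis) of marker genes of 6 cell types on each array, by group; points are arrays with replicate numbers, bars are means with SD, and vertical scales differ. Skeletal muscle markers lie at 7.78 to 9.53 in diabetic Apoe/RAGE null arrays, and smooth muscle markers reach their lowest value, 11.11, in the same group.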

How the data were processed

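The values are log2 levels per probe set that the authors deposited after robust multi-array averaging (RMA, per the submitters' processing notes) of 15 single-colour arrays; scanner intensities were not used here. RMA corrects background and makes arrays alike in distribution, so differences are relative to the array as a whole, and values have no counts behind them; precision is limited by how many arrays each group holds. Of 45101 probe sets, 64 controls were left out. By the platform annotation of 2016, 34945 of the other 45037 named 1 gene, 932 several and 9160 none; symbols were updated by Entrez identifier for 34741. A gene with several probe sets was read on the one of highest mean over all arrays, and levels were not compared between probe sets.

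Linear models with 1 mean per group (limma 3.58.1, R 4.3.3) were fitted to all 45037 probe sets and 15 arrays, with Benjamini-Hochberg adjustment over all of them at 0.05 in each of 4 comparisons and their interaction. The fitting code was checked on simulated data with independent noise on each probe set and array. Those data had no variation shared by the genes of an array, so the check does not show how well differences are recovered here. The genes named are all members, and from each pathway list those past the adjusted test or among the 3 smallest p-values of a comparison. The members and all lists were chosen with earlier results of these data known. Promoters come from RefSeq tables (GRCm38.p6), matched by symbol for 8 of the 10 genes.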

Additional observations from a re-analysis of the deposited data

Results flagged for a closer look

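In 4 of the 72 sets of 4 arrays examined (1 group on 1 probe set), an array lay far from the other arrays of its group by Dixon's criterion, where chance gives about 1 in 20. In the diabetic Apoe/RAGE null group, Tgfbr2 (1426397_at) read 9.87 on replicate 10 against 9.57 to 9.60 on the others. In the same group Tgfbr3 (1433795_at) read 9.96 on replicate 11 against 10.10 to 10.12. The dim Ltbp3 probe set 1456189_x_at read 4.02 on replicate 10 there, against 4.17 to 4.19. In non-diabetic Apoe null aorta the dim Ltbp1 probe set 1419786_at read 3.5 on replicate 8 against 4.33 to 4.40. The mean of 4 cardiac muscle markers was 11.26 on that array, against 5.24 to 6.83 on the others of its group. Whether the 2 are linked was not tested.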

How the results depend on the processing

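Over 27 settings, none of the 29 differences with an unadjusted p under 0.05 changed sign, while 50 of the other 91 did under at least 1 setting. Many settings cannot change a difference between 2 groups. Examples are another prior, a subset of the probe sets or leaving out an array of a group not compared. The 29 were also picked as large against their SE, so their keeping sign is a weak check. The count of probe sets called with RAGE deletion in diabetes was 110. It was 0 on the compared groups alone, 253 among the probe sets above the median brightness, 53 with array weights, 72 with 1 probe set per gene, 321 by B above 0, 22 without replicates 9 and 10, 2 with the smooth muscle covariate, 0 with the skeletal muscle covariate, and 0 to 931 with 1 array left out, the highest without replicate 2. Of the 24 probe sets 1 was called. This was 0 on the compared groups, without replicates 9 and 10 and with either covariate, 3 with median centring, 4 among the brighter probe sets and by B above 0, 2 with a trended and robust prior, and 0 to 6 with 1 array left out. With diabetes in Apoe null mice 0 probe sets were called, against 5 on the compared groups, 7 with array weights, 76 by B above 0, 1 with quantile normalization, among the brighter probe sets, with 1 probe set per gene and without probe sets that can share probes, and 0 to 3 with 1 array left out. RAGE deletion without diabetes called 0, against 5 on the compared groups and 9 without replicates 9 and 10. Diabetes in Apoe/RAGE null mice called 0, against 12, 4 by B above 0, and 0 to 49.

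Of the values printed in the report, these changed sign, besides the interactions given above as changing sign. With diabetes in Apoe null mice, Tgfbr3 was -0.030 with array weights and Tgfb3 -0.013 with the smooth muscle covariate; with 1 array left out, Tgfb3 ranged from -0.068 to 0.20, Tgfbr3 from -0.069 to 0.10 and Ltbp4 from -0.52 to 0.0065. Ltbp1 without diabetes ranged from -0.10 to 0.11. With diabetes in Apoe/RAGE null mice, Ltbp1 was 0.023 with the smooth muscle and 0.16 with the skeletal muscle covariate, and Tgfbr1 0.050 with the latter. With RAGE deletion in diabetes, Ltbp2 ranged from -0.0090 to 0.068, Ltbp4 was 0.36 with the smooth muscle and 0.0075 with the skeletal muscle covariate, and Tgfb1 was 0.071 with the latter. The causes were not tested. No paired analysis was possible because each replicate number belongs to a single mouse.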
